A study of Homo sapiens with 2 samples.

Results

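The genes described are 10 that act on blood vessel growth: the ligands VEGFA (written VEGF on the arrays), VEGFB, VEGFC, PGF and ANGPT2, the receptors KDR and FLT1, the inhibitors THBS1 and VASH1, and the oxygen-regulated transcription factor HIF1A. They were taken by name from the 30982 gene names carried by the transcript spots, and each of their 19 probes was kept. Expression was measured on 2 one-color Agilent arrays in Y79, an established human retinoblastoma cell line. The untreated array carried RNA of Y79 cells that received no siRNA, and the siRNA-treated array carried RNA of Y79 cells collected 48 h after siRNA against Ep-CAM, the epithelial cell adhesion molecule. By the study's methods, both cultures had first been exposed to 5′-azacytidine, a DNA demethylating agent. The labels name no scrambled siRNA for the untreated cells, so the silencing and the transfection itself cannot be told apart. Each condition is 1 cell line on 1 array, so there is no replicate check and no test between conditions, and all values below compare these 2 arrays.

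Vascular endothelial growth factors are secreted proteins that bind receptor tyrosine kinases on endothelial cells and set off their division, migration and survival. Hypoxia stabilizes the HIF1A protein, which then switches on VEGFA and genes of glycolysis, while secreted inhibitors such as thrombospondin hold vessel growth back. Retinoblastoma is a vascular tumor of the developing retina, and VEGFA is the factor best known for driving new vessels in the eye.

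Probes are numbered within a gene from the highest to the lowest signal on the untreated array, and all are 60 bases long. The array design places its probes on hg17, and positions are given there. Of the 19 probes, 6 cover a genomic span longer than the probe and so cross an intron. The sequences shown are 5 of these, each a probe whose value is discussed below. They are followed by the first 30 bases of the member probes with the fewest G and C bases, which were well above background on neither array. Capitals mark G and C, since base composition went with detection on these arrays.
VEGFA probe 3, chr6:43854201-43854612, plus strand: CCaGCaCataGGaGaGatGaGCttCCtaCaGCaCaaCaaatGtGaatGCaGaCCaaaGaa
VEGFB probe 1, chr11:63760030-63760333, plus strand: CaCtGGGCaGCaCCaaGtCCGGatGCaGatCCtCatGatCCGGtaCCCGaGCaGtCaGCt
PGF, chr14:74484995-74485827, minus strand: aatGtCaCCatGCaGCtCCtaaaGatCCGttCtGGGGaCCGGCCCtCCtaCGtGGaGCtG
KDR probe 2, chr4:55789726-55794756, minus strand: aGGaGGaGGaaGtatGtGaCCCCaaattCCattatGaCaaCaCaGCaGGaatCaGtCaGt
VASH1 probe 2, chr14:76307297-76309246, plus strand: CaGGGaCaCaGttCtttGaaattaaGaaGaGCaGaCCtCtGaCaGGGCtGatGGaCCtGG
VEGFA probe 4, first bases of chr6:43861489-43861548, plus strand: aGtGttttatataCGGtaCttatttaatat
HIF1A, first bases of chr14:61284598-61284657, plus strand: GttGtCaCaGtaaatatCttGttttttCta

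The arrays were alike in brightness, with median processed signals of 48.8 (untreated) and 50.0 (siRNA-treated), and 70.4% and 68.0% of transcript spots flagged well above background. Over the 27044 probes well above background on both arrays, the log2 ratio of siRNA-treated over untreated had a median of -0.03 and an SD of 0.33. In a corner of the array (the highest row and column numbers) the SD was 0.51, against 0.29 outside it. Ep-CAM (TACSTD1 on the array), the target of the siRNA, has 1 probe, which neither array flagged as well above background (15.6 untreated, 12.0 siRNA-treated), so these arrays give no check of the silencing.

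None of the 8 angiogenesis genes measured on both arrays had a probe measured on both that differed by 2-fold or more, and the other 2, HIF1A and ANGPT2, gave no ratio. Of their 19 probes, 12 were well above background on both arrays, 1 (VASH1 probe 2) on the siRNA-treated array alone and 6 on neither. Over all probes, 66.0% were well above background on both arrays. A probe well above background on at least 1 array could be compared, which leaves 13, and 0 of these were at least 2-fold higher or lower. The value of VASH1 probe 2 is only a bound, which does not exclude 2-fold. Over all 29396 probes compared in the same way the share was 2.19%, made of 1.27% higher and 0.925% lower. At that share 0.285 of 13 probes would be past 2-fold, so a count of 0 is near the background. Without the corner the share of all probes was 1.09% (24410 compared), and 0 of the 11 member probes then compared were past 2-fold. This drops 2 of the 13 and adds none, so the member count could hardly rise. Among the 12 probes measured on both arrays the log2 ratio ran from -0.38 to 0.41 with a median of 0.06, and it was above 0 for 7 and below 0 for 5.

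**Figure D1:**
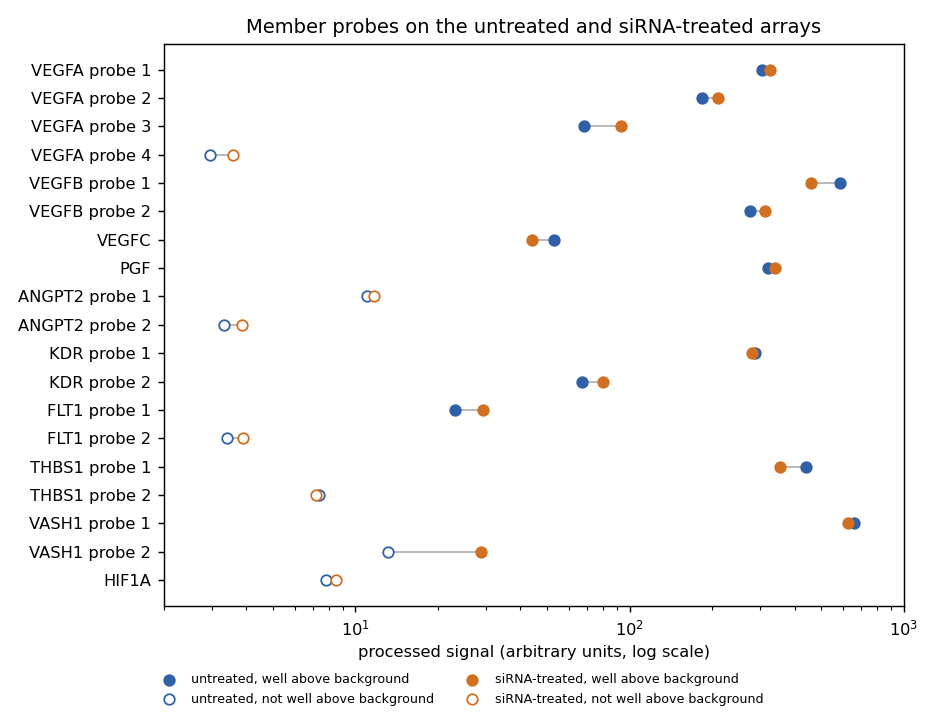
Processed signal of the 19 member probes on the untreated (blue) and siRNA-treated (orange) array, on a log axis. Filled points were well above background on that array and open points were not. Each pair of filled points lies close together, and only VASH1 probe 2 changes from open to filled. Signals of different probes are not comparable with each other.

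VEGFA, the main vascular growth factor, was measured at nearly equal levels on the arrays. Its probe 1 is printed at 10 spots, which repeat the measurement on the same RNA. The processed signal of these spots had a lowest value of 283, a median of 305 and a highest value of 325 on the untreated array. On the siRNA-treated array the lowest was 311, the median 321 and the highest 353. The ranges overlap, and 8 of 10 spots were brighter on the siRNA-treated array after scaling. The mean log2 ratio was 0.07 with an SD of 0.07 between spots.

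The other VEGFA probes have 1 spot each. Probe 2 gave 184 untreated and 211 siRNA-treated, a log2 ratio of 0.16. Probe 3, which joins exons across an intron, gave 68.4 and 92.9, a log2 ratio of 0.41 and the highest among member probes measured on both arrays. The error the scanner software states for these spots comes to 0.21 and 0.23 on the log2 scale, so the value of probe 3 is 1.76 times its error. Over all measured probes, 15.5% lay at least as far from 0. The 152 measured spots within 10 rows and 5 columns of it had a median of -0.02, so its surroundings did not share the difference. The 3 measured VEGFA probes thus all had a ratio above 0 in the processed signal, at sizes from 0.07 to 0.41, and none came near 2-fold. After normexp, an alternative background correction, probes 1 and 2 were at -0.39 and -0.32, where the median of all measured probes was -0.20. With its fit made without spots dimmer than their background they were at 0.07 and 0.05. Probe 4 read 2.96 and 3.57, values that the software sets in place of a spot not above background.

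VEGFB, a relative of VEGFA that binds FLT1, had probes on opposite sides of 0, both inside 2-fold. Probe 1 read 588 untreated and 461 siRNA-treated, a log2 ratio of -0.38 with a stated error of 0.21. Probe 2 read 276 and 313, a log2 ratio of 0.15 with an error of 0.21. Probe 1 has the lowest log2 ratio of the measured member probes, and it lies in the corner, at row 444 and column 83. The software divides each background-subtracted signal by a smooth surface fitted over the array, which is meant to even out its regions. The divisor at this spot was 0.767 for the untreated RNA and 0.955 for the siRNA-treated RNA. Before that division the spot read 451 and 441, and its scaled log2 ratio was -0.06. The 103 measured spots around it had a median of 0.00 with an SD of 0.75. The difference in VEGFB probe 1 was present after the surface division and close to 0 before it.

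VEGFC, the growth factor of lymphatic vessels, has 1 probe, which read 53.2 untreated and 44.1 siRNA-treated. Its log2 ratio of -0.30 had a stated error of 0.26, and the 110 measured spots around it had a median of -0.23. Relative to those spots its log2 difference was -0.08. The spot lies at column 83 near the edge but outside the corner, and the surface divisors there were 1.06 on both arrays.

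PGF, placental growth factor, a ligand of FLT1, read 319 untreated and 339 siRNA-treated, a log2 ratio of 0.06 with an error of 0.20. ANGPT2, which loosens vessels by competing with ANGPT1 at the receptor TEK, was flagged well above background at neither of its probes. Probe 1 read 11.0 and 11.6, and probe 2 was filled in by the software on both arrays. No ratio can be given for ANGPT2.

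KDR, the receptor that carries most of the VEGFA signal in endothelium, was well above background on both arrays at both of its probes. Probe 1 read 288 untreated and 280 siRNA-treated, a log2 ratio of -0.07 with an error of 0.21. Probe 2, across an intron, read 67.3 and 80.2, a log2 ratio of 0.22 with an error of 0.23. The probes thus fell on opposite sides of 0, each within its error.

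FLT1, which binds VEGFA, VEGFB and PGF and also exists as a soluble decoy, was measured at probe 1 with 23.0 untreated and 29.1 siRNA-treated. The log2 ratio was 0.30 with an error of 0.33, the widest among the single-spot probes measured on both arrays. Its probe 2 was filled in by the software on both arrays.

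THBS1, thrombospondin, a matrix protein that inhibits endothelial growth, read 441 untreated and 355.4 siRNA-treated at probe 1. Its log2 ratio of -0.35 had an error of 0.21. The 95 measured spots around it, at row 421 and column 83 of the corner, had the same median of -0.35, so relative to its surroundings the spot differed by 0.00. The surface divisor was 0.848 (untreated) and 0.989 (siRNA-treated). Before division the spot read 374 and 351, and its scaled log2 ratio was -0.12. Probe 2 is printed at 10 spots, none of which was well above background on either array. The weaker flag for positive and significant spots was set for 9 of them untreated and 8 siRNA-treated. Their medians were 7.01 untreated, within 3.85 to 12.6, and 7.46 siRNA-treated over the 9 spots that were no outliers, within 4.57 to 10.1. The ranges overlap and no ratio is given for this probe.

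**Figure D2:**
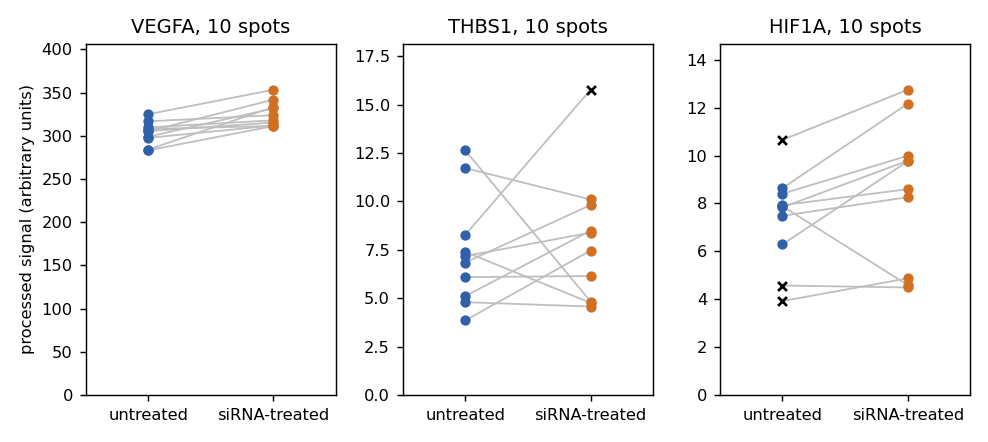
Processed signal of the 3 member probes printed at 10 spots, on the untreated and siRNA-treated arrays, with a line joining the same spot and each panel on its own axis from 0. Crosses are spots marked as outliers. The VEGFA spots lie between 283 and 353 and shift little, while the THBS1 and HIF1A spots are dim, none well above background, and their lines cross.

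VASH1, vasohibin, an inhibitor that endothelial cells make in response to VEGF, gave the widest disagreement between probes. Probe 1 read 660 untreated and 629 siRNA-treated, a log2 ratio of -0.10 with an error of 0.20. Probe 2, across an intron, read 13.2 untreated, where it was not well above background, and 28.7 siRNA-treated, where it was. Its bound sets it against 14.9, the lowest signal well above background on the untreated array. By this it was 1.87-fold higher on the siRNA-treated array (1.87 is below the 2-fold used here). The bound is a convention and no strict limit, since a PDE6H probe read 19.0 untreated without the flag. It also leaves out the error of the spot. The ratio of the values as read was 2.12, a log2 ratio of 1.09 with a stated error of 0.54. The raw brightness of the spot was 83.7 and 100.0, against local backgrounds of 33 and 34. Less these backgrounds it was 50.7 and 66.0, a log2 ratio of 0.38 before scaling. The software subtracted more and was left with 11.4 and 25.1 before the surface division, so the size of the ratio depends on that subtraction. At the positions touching this spot, 4 transcript spots were measured on both arrays, with log2 ratios from -0.45 to 0.48, and none was past 2-fold. The spot lies outside the corner. Probe 2 is the member value closest to 2-fold, and it rests on 1 dim spot while the bright probe of the same gene lay just below 0.

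HIF1A has a single probe, printed at 10 spots, and none of them was well above background on either array. The weaker flag for positive and significant spots was set for 9 of them on each array. On the untreated array 3 spots were outliers and the other 7 ran from 6.29 to 8.64 with a median of 7.88. On the siRNA-treated array the 10 spots ran from 4.49 to 12.7 with a median of 9.18. The ranges overlap, and whether HIF1A mRNA differed was not detectable at this signal. G and C make up 25.0% of the bases of this probe, and a low signal from it does not say that the mRNA was absent.

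Of the 11 single-spot probes measured on both arrays, 7 lay within 1 stated error of 0, and all 11 lay within 2. The exceptions at the smaller limit were VEGFA probe 3 above 0, and VEGFB probe 1, VEGFC and THBS1 probe 1 below 0. The last 3 all lie at column 83, as does the dim VASH1 probe 2. For VEGFB probe 1 and THBS1 probe 1 the ratio shrank when the surface division was left out, and for VEGFC and THBS1 probe 1 the spots around them were shifted the same way. The ratio of VEGFA probe 3 was 0.37 before the division, but 0.15 from the raw series values, 0.08 after normexp background correction and 0.21 with the normexp fit made without spots dimmer than their background. The series values keep the background and normexp adds an offset of 50, and both draw a ratio at this signal toward 0. Raw brightness less the local background gave 0.31 before scaling.

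**Figure D3:**
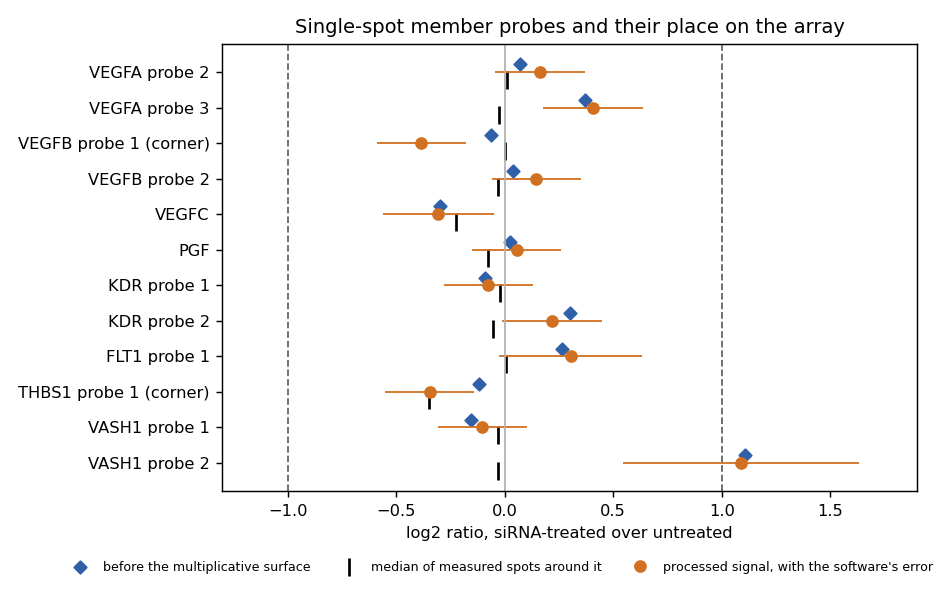
Log2 ratio of siRNA-treated over untreated for the 12 member probes with 1 spot that were well above background on at least 1 array. Orange points are from the processed signal, with bars of 1 error as stated by the scanner software, blue diamonds are from the signal before the surface division, and black ticks are the median of measured spots around the probe. Dashed lines mark 2-fold. VEGFB probe 1 and THBS1 probe 1 move toward 0 before the division, and VASH1 probe 2 is the only point past a dashed line, as read on a dim spot (its bound is 0.91).

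Whether a member could be measured went with the base composition of its probe. The 12 member probes measured on both arrays had 35.0 to 70.0% G and C, and the 6 measured on neither had 20 to 45.0%. Below 40% G and C, 1 of 6 member probes was measured on both arrays, namely VEGFC. Over all transcript probes the share measured on both arrays was 10.7% below 30% G and C (1155 probes) and 41.5% from 30 to below 40%. It was 74.2% from 40 to below 50%, 93.9% from 50 to below 60% and 98.6% at 60% and above (1613 probes). The median signal on the untreated array was 3.77 in the lowest and 234 in the highest of these classes. The dim probes of VEGFA (20%), HIF1A (25.0%), FLT1 (35.0%) and ANGPT2 (36.7% for each) belong to classes in which 85.9% (below 30%) and 50.7% (30 to below 40%) of all probes were measured on neither array. THBS1 probe 2 (45.0%) belongs to a class in which 19.7% were. The part of base composition in the members' detection was not tested.

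**Figure D4:**
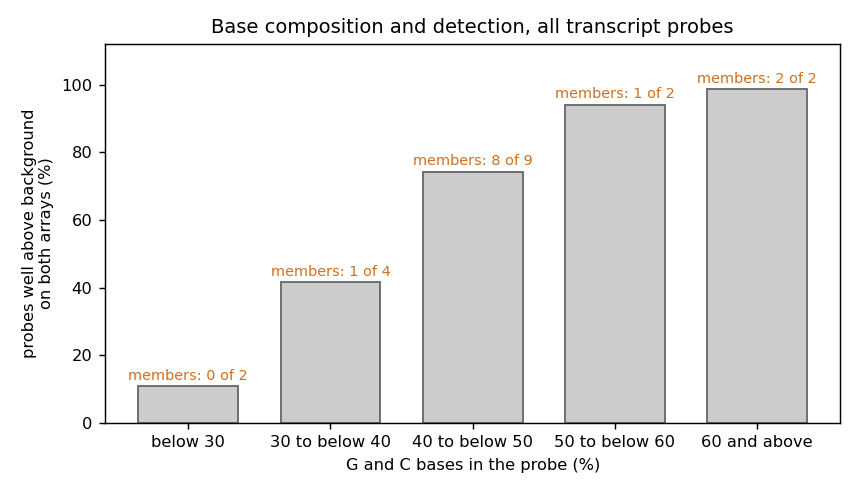
Share of all transcript probes that were well above background on both arrays (bars, percent) by the G and C content of the probe, with the number of member probes measured on both arrays written above. The share rises from 10.7% in the lowest class to 98.6% in the highest.

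The rest of the pathway was followed through lists of 106 further genes, all found on the arrays, with 175 probes. Of these, 116 were measured on both arrays and 126 could be compared. The 126 include 9 probes well above background on the untreated array alone and 1 on the siRNA-treated array alone. Such probes give at most a bound, which does not exclude 2-fold. An ERG probe read 27.9 untreated and 8.98 siRNA-treated, a log2 ratio of -1.67 as read with a bound of -0.71. None of the 126 was past 2-fold, where the share of all probes would give 2.76, and the median log2 ratio over the 116 was -0.003 with 57 above 0 and 59 below. Within this, the other ligands and receptors of the VEGF and angiopoietin system (8 genes) had 10 of 18 probes measured on both arrays. Their median was 0.14, from -0.18 to 0.65, with 7 above 0. The high end, ANGPT1, was a spot in the corner. NRP1, a co-receptor for VEGFA, read 434 untreated and 411 siRNA-treated at its brightest probe (log2 ratio -0.11), and its other 3 probes were at background. NRP2, a co-receptor for VEGFC, had 3 measured probes with log2 ratios of 0.14, 0.09 and 0.50, and 1 well above background on neither array.

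Angiogenic factors of other families (23 genes) had 26 of 38 probes measured on both arrays, with a median of 0.05 and a range from -0.70 to 0.42. EFNB2, an ephrin of arterial endothelium, read 385 and 468 at its brighter probe (log2 ratio 0.25) and 35.2 and 43.6 at the other (0.27). HGF, a growth factor for epithelium and endothelium, read 361 and 352 (log2 ratio -0.07), and 20.6 and 21.7 at its other probe (0.04). Both genes lay well inside 2-fold at each of their probes.

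Further inhibitors of angiogenesis (20 genes) had 20 of 30 probes measured on both arrays, with a median of 0.00 and a range from -0.87 to 0.30. The low end was TIMP2, an inhibitor of matrix metalloproteinases, which read 9853 untreated and 5530 siRNA-treated at a probe in the corner, and was at background at its other probe. The high end, THBS4, was also a spot in the corner. VASH2, the relative of VASH1, read 530 and 580, a log2 ratio of 0.10. Probes as bright as that of TIMP2 were shifted in general: the 1395 probes with a mean signal of 2000 or more had a median log2 ratio of -0.27, while the 6201 from 200 to below 1000 had -0.02. No member probe was in the bright class.

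The oxygen sensing genes (13 genes) had 14 of 22 probes measured on both arrays, with a median of -0.15, from -0.68 to 0.63, and 10 below 0. The ends of this range, VHL and TCEB2, were each a spot in the corner. TCEB1, the elongin C subunit of the complex that marks HIF1A for destruction, read 20847 and 15487 (log2 ratio -0.46). EGLN2, a prolyl hydroxylase that tags HIF1A when oxygen is present, read 512 and 716 (log2 ratio 0.45). Both are components of HIF1A turnover, and they lay on opposite sides of 0.

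The targets of hypoxia signaling (21 genes) had 28 of 39 probes measured on both arrays. Their median was -0.05, with 13 above 0 and 15 below, and they spread from -0.91 to 0.80, the widest range of these lists. The ends of this range, LDHA and BNIP3L, were each a spot in the corner, where the ratios of all probes spread more. PGK1, a glycolytic enzyme, read 9850 and 7547 over its 10 spots (log2 ratio -0.42) and 6502 and 4199 at a second probe (-0.67), with its dimmest probe at background. KDM3A, a histone demethylase induced by HIF1A, read 2991 and 2940 (log2 ratio -0.06), and was dim on 1 or both arrays at its other probes. Both genes, like TCEB1, are in the bright class with the shifted median. HIF1A itself could not be measured, so its targets are given without a level for it.

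**Figure D5:**
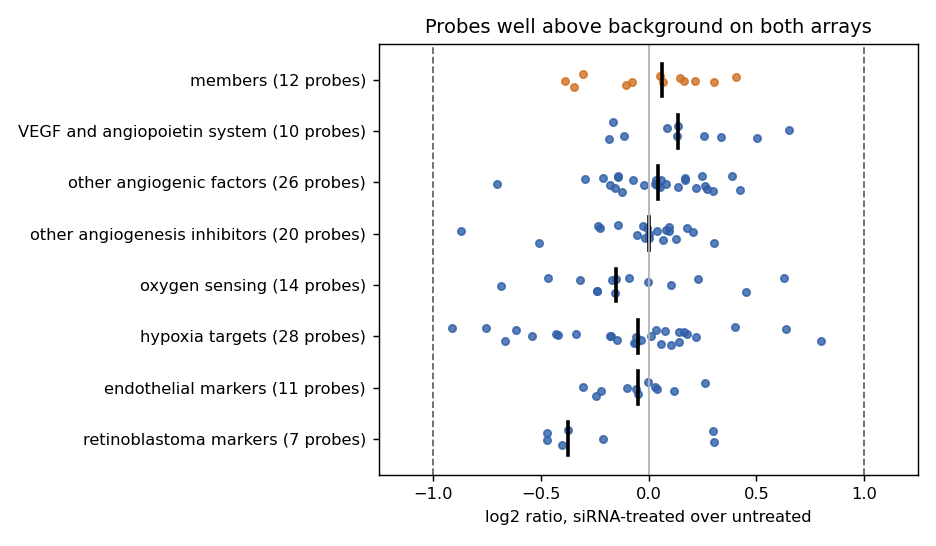
Log2 ratio of siRNA-treated over untreated for each probe well above background on both arrays, by gene list (members orange, other lists blue), with the list median as a black bar and dashed lines at 2-fold. Points are spread vertically for view. No point reaches a dashed line, and the medians run from -0.37 for the 7 retinoblastoma marker probes to 0.14 for the 10 probes of the VEGF and angiopoietin system.

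Markers of the labelled cell type and of endothelium were counted as a check. Of 11 retinoblastoma and photoreceptor genes, MYCN, CRX, OTX2, ARR3, GUCA1A and GNGT2 were measured on both arrays and THRB on the untreated array alone. NEUROD1, NRL, PDE6H and RCVRN were well above background on neither. Of 14 endothelial genes, 10 were measured on both arrays: KDR, FLT1, CDH5, VWF, CLDN5, ESAM, EMCN, EGFL7, ROBO4 and ERG. PECAM1, SELE, TEK and TIE1 were on neither. The brightest probe of each endothelial gene ran from 3.81 to 344 (untreated) and from 4.15 to 351 (siRNA-treated), with sums of 1667 and 1690. The highest on each array was that of ESAM. For the retinoblastoma genes the sums were 645 and 664, and over all their 12 probes 783 and 766. Signals of different probes are not comparable with each other, so these sums compare the arrays and not the cell types. Of the 7 retinoblastoma marker probes measured on both arrays, 5 had a log2 ratio below 0, and the median was -0.37. These were CRX (-0.37), OTX2 (-0.47, in the corner), GNGT2 (-0.40), ARR3 (-0.21) and the dimmer MYCN probe (-0.47), while GUCA1A was at 0.30. The brighter MYCN probe, in the corner, read 259 and 327 (log2 ratio 0.30). No retinoblastoma marker probe was past 2-fold, although THRB gave only a bound (-0.61). The measured endothelial probes had a median of -0.03. The measured endothelial probes had 38.3 to 70.0% G and C, and the measured retinoblastoma probes 35.0 to 73.3%. The count of markers above background was thus no lower for endothelium, a cell type that a retinoblastoma line does not contain, than for the labelled tumor, and the part of base composition in this was not tested. By probe, 14 of 22 endothelial and 7 of 12 retinoblastoma probes were measured on both arrays, where the share of all probes was 66.0%. Both are near that share, so the counts say little about cell type. In RNA of a whole culture, fewer cells that express a gene and less RNA per cell cannot be told apart.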

How the data were processed

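Spot intensity values on 2 arrays were deposited as scanner output, made by the authors with Feature Extraction, Agilent's image software (version 9.5.3.1 per the file headers). The processed intensity is the mean brightness minus background, divided by a smooth surface over the array, and it is not scaled between arrays. The deposited files also hold that divisor, a linear ratio near 1 (from 0.544 to 1.20 on the untreated array), and flags. The deposited table of series values matched the raw median brightness to within 1 for 100% of the probes with 1 spot and served as an alternative.

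Transcript spots that were no outliers were scaled by their median on each array, floored at 0.01 and put on the log2 scale. Spots of a probe were averaged, and 50% or more of them had to be well above background for the probe to count so. A probe dim on 1 array gave a bound, and a probe dim on both gave no ratio. A probe was past 2-fold at a log2 ratio of 1 or -1. Stated errors are the software's own error of each spot, combined over both arrays. They cover the spot, not the culture, and with 1 array per condition no test was made. The repeated spots of 195 probes had a median SD of 0.14 in the log2 ratio.

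The members and gene lists were chosen with earlier results of these data known. The text names every member at every probe, every listed gene past 2-fold, and all genes of the marker lists. Of each other list it gives the 2 genes with the highest mean signal, with all their probes. Genes at the end of a list's range are also named where their spot lay in the corner. For the hypoxia targets, the ends of the range outside the corner and the other probes of LDHA and BNIP3L are given too. Gene symbols were matched to the RefSeq gene table for 10 of 10 members. Alternatives were other scalings, background corrections, filters, thresholds and the removal of the corner. Added after the data were seen were another background flag, centring on the spots around a probe, a normexp fit without spots dimmer than their background, and the signal before the surface division. Python 3.11.15, pandas 2.3.3, R 4.3.3 and limma 3.58.1 (normexp, offset 50) were used, and calls were tested on simulated data.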

Additional observations from a re-analysis of the deposited data

How the results depend on the processing

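No member probe was past 2-fold under 13 of 16 alternatives. Some of the 13 could return only 0. Taking only probes measured on both arrays, or the brightest probe of each gene, keeps part of the probes already counted. Removal of the corner drops 2 of the compared probes and adds none, so it could hardly return more. A floor of 5 on the signal left the measured ratios unchanged. The exception in the other 3 was VASH1 probe 2, so that the count was 1 with no filter on dim probes, 1 with the weaker flag for positive and significant spots (chosen after seeing the data) and 1 with ratios above 1.5 and below 0.55 as the limits. The count over the other listed genes moved from 0 to 3 with no filter and to 3 with the weaker flag (CXCL10, EGLN1 and ERG each time). It was 6 with the limits of 1.5 and 0.55 (4 higher and 2 lower: ANGPT1, BNIP3L, P4HA2, TCEB2, LDHA and TIMP2), and 6 after normexp background correction, all lower (DDIT4, LDHA, PGK1, TCEB1 and TIMP2). That correction moved the median of all measured probes to -0.20 and gave 45 higher and 1056 lower probes, against 372 and 272 as reported. With the normexp fit made without spots dimmer than their local background, the median was -0.02, and the calls were 128 higher and 77 lower. The raw brightness of the series values gave 89 and 80, and removal of the corner gave 109 and 156.

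The log2 ratios of the 12 measured member probes were recomputed under 10 alternatives. Of 120 values, 94 stayed within the spread between repeated spots, 0.14, and 26 moved by more, 10 of them after normexp on all spots. A floor of 5 on the signal left the measured ratios as they were. Scaling by another divisor per array, or by none, shifted all probes alike and by less than 0.14. The values under these settings could therefore not move by more and say nothing about stability. The sign changed in 6. VEGFA probe 1 ran from -0.39 to 0.14, VEGFA probe 2 from -0.32 to 0.20 and VEGFA probe 3 from 0.08 to 0.44. VEGFB probe 1 ran from -0.53 to -0.03 and THBS1 probe 1 from -0.55 to 0.00. None of the 120 was past 2-fold. No paired analysis was possible because each condition has 1 array. For the 6 dim probes, signal over background is the limit.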
